A study of Mus musculus with 56 samples.

Results

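The initial segment and the caput epididymidis of 3-month-old mice were compared in 8 RNA-seq libraries, 4 of each region, out of 56 in the whole series. They were taken by the region and age in their labels, and none of them was left out. The series covers 7 regions, from the testis to the vas deferens, at 3 and 21 months of age. All mice were males of C57BL/6, an inbred laboratory strain, and the labels give no treatment and no altered allele for any group. According to the methods of the study, the organs of both sides of a mouse were collected, fat and connective tissue were trimmed off and the regions were cut apart under a dissecting microscope. Each library therefore held a whole piece of duct, with its epithelium, muscle coat, vessels, blood cells and sperm. The study used 4 mice of each age and took every region from each of them, so both regions share animals. Which mouse a replicate number stands for is not stated and the fit had no term for the mouse, so the p-values measure only the spread between these libraries. Libraries were stranded total RNA, and the values are read counts per gene, printed here as CPM, a count divided by its library size after trimmed mean (TMM) scaling and brought to a common total. A difference is the log2 of initial segment over caput from edgeR's quasi-likelihood test with 4 libraries in each region. Its standard error (SE) was worked back from that test, as the absolute difference divided by the square root of F. It is therefore approximate, above all where a region has hardly any counts. Genes are named by a rule given with the processing, and the others named within a gene group or cluster were picked after their values were seen. In whole tissue, fewer cells of a type and less RNA per cell cannot be told apart.

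The epididymis is a long coiled duct in which sperm leaving the testis mature. Its first stretch, the initial segment, takes up fluid straight from the efferent ductules and is kept differentiated by factors that reach it through the lumen from the testis, a route called lumicrine signalling. One such factor, NELL2, acts through the receptor tyrosine kinase ROS1 on the ERK cascade, whose targets include the ETS transcription factors ETV4 and ETV5 and the feedback inhibitors of the dual-specificity phosphatase and Sprouty families. The caput lies next to it along the same duct and secretes its own set of lipocalins, beta-defensins, ribonuclease-like proteins and protease inhibitors, many of which coat the sperm.

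The initial segment had more RNA of the secreted lipocalins Lcn8 and Lcn9, 8 of the 12 cystatins tested, the ribonuclease-like Rnase10, the membrane protease Adam28 and the ETS factors Etv4 and Etv5. The caput had more RNA of the chaperone clusterin (Clu), the retinoic acid carrier Lcn5, the mucin Muc5b, Rnase9 and Rnase13, most beta-defensins and the serpins Serpina1f and Serpina16. Among 25412 genes with at least 10 counts in total, 4002 (15.7%) passed an adjusted p of 0.05 towards the initial segment and 4297 (16.9%) towards the caput. The counts for gene groups given here are to be read against these 2 shares, and a share near them is no result about the group. A difference of at least 4-fold was called for 991 genes (3.9%) towards the initial segment and for 1390 (5.47%) towards the caput. These numbers depend on the processing, as described at the end. With library size in place of TMM, 2601 genes passed towards the initial segment and 2354 towards the caput. The regions were nevertheless close: Pearson's r of log2(CPM + 1) across genes ran from 0.931 to 0.964 between regions, against 0.991 to 0.994 within the initial segment and 0.974 to 0.993 within the caput.

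Sizes of the differences were not alike in the 2 directions. Of the 2018 genes called towards the initial segment with at least 20 CPM there, 11 were 16-fold higher or more and none was 32-fold higher. Of the 1604 genes called towards the caput with at least 20 CPM there, 77 (4.8%) reached 16-fold and 48 (2.99%) reached 32-fold. The median difference was similar, 0.70 on the log2 scale towards the initial segment and 0.79 towards the caput, so the directions parted in the far tail. Several of the caput genes had no count or a few counts in the initial segment. Among all tested genes the median difference was -0.03.

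**Figure D1:**
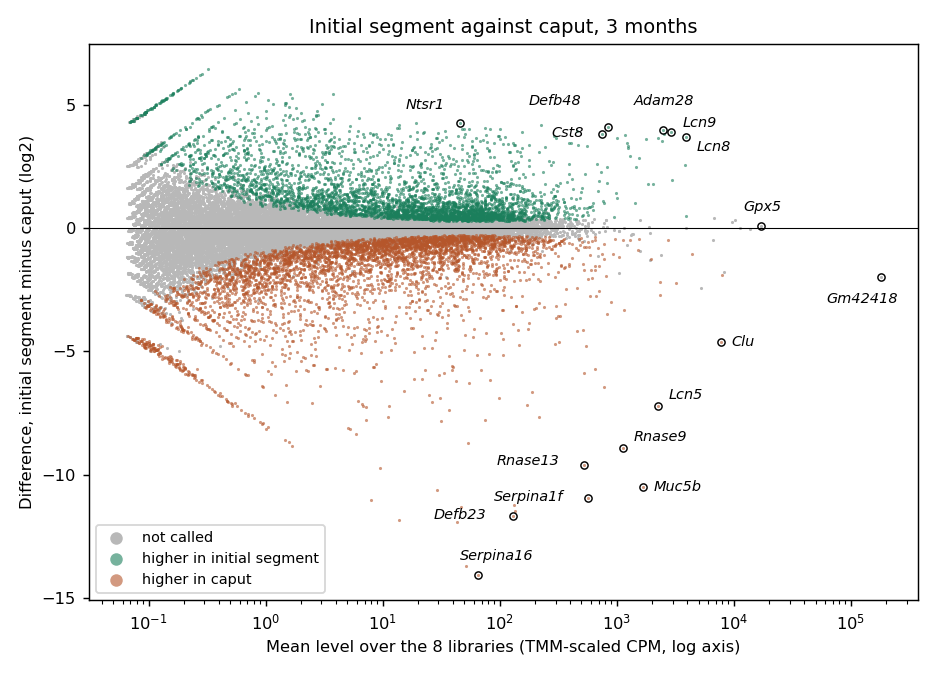
Each point is 1 of the 25412 genes tested, with its mean level over the 8 libraries on a log axis (CPM) and its log2 difference, initial segment minus caput, on the vertical axis. Green and orange points passed an adjusted p of 0.05 in edgeR; above 20 CPM no green point reaches 32-fold, whereas Lcn5, Rnase9, Muc5b and the serpins lie far below.

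Library sizes ran from 13109573 to 17500627 counts, with 24560 to 27641 genes detected. Caput replicate 2 stood apart, because Gm42418, a gene overlapping a ribosomal RNA repeat, took 49.7% of its counts (95% Wilson interval 49.7 to 49.8%, for counting error alone). The remaining 7 libraries had 5.88 to 9.62%. Mitochondrial genes took 5.83% of the counts in that library and 0.806 to 2.63% in the others. A count of 3, used here as the floor, was worth 0.0435 CPM over the 4 initial segment libraries and 0.0479 CPM over the 4 caput libraries. A further difference between libraries concerned non-coding genes that lie opposite the exons of a protein-coding gene. Over 188 such genes, the median count as a share of the coding partner was 0.261, 0.237, 0.185 and 0.207% in initial segment replicates 1 to 4, 0.283% in caput replicate 1, and 1.16, 1.06 and 1.08% in caput replicates 2 to 4. Genes annotated as ribosomal RNA, Gm42418 aside, moved the same way, with 0.329 to 0.474% of counts in the initial segment, 0.403% in caput replicate 1 and 1.58 to 2.11% in caput replicates 2 to 4. At 21 months the share was higher in the initial segment (0.737 to 1.12%) than in the caput (0.126 to 0.138%).

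Calls of non-coding genes moved with that share. Of the 171 opposite-strand genes tested, 65 (38%) were at least 4-fold higher in the caput and 0 in the initial segment, and 51 of the 65 were called the other way at 21 months. With caput replicate 1 as the only caput library, 11 of the 65 still differed 4-fold in the same direction. Among genes that do not code for protein, 749 of 8673 (8.64%) were 4-fold higher in the caput and 325 (3.75%) in the initial segment. Among the 16739 protein-coding genes the directions were nearly even, with 641 (3.83%) and 666 (3.98%), and 579 of the 641 caput genes (90.3%) also differed 4-fold against caput replicate 1 alone. The part of this share in other calls was not tested.

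**Figure D2:**
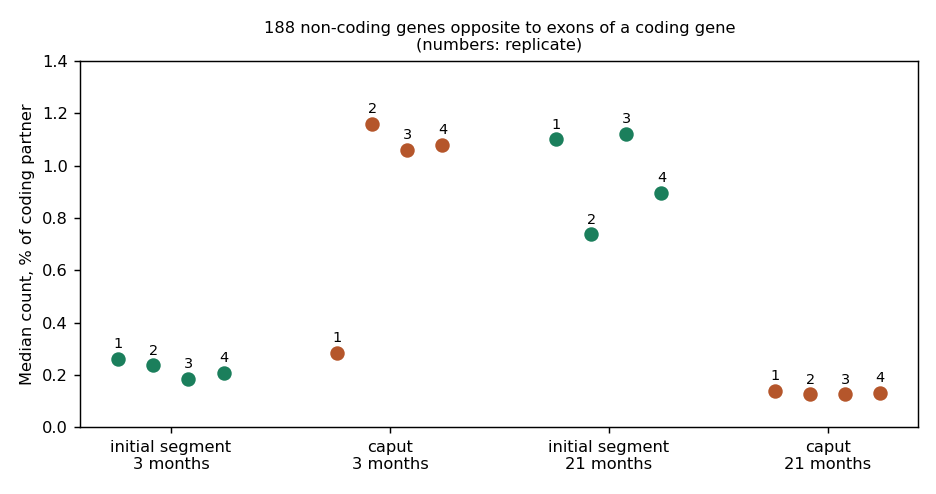
Each point is 1 library of the initial segment (green) or caput (orange) at 3 or 21 months, with the median count of 188 non-coding genes as a percentage of the coding gene on the other strand. Caput replicates 2 to 4 at 3 months and all initial segment libraries at 21 months lie above 0.7%, and the rest lie below 0.3%.

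The receptor of the lumicrine pathway differed less between the regions than Etv4 and Etv5. Ros1 stood at 882, 871, 853 and 747 CPM in initial segment replicates 1 to 4 and at 392, 412, 431 and 445 CPM in caput replicates 1 to 4. The groups did not overlap, and the difference was 1.0 (SE 0.12, edgeR adjusted p = 1.77e-05). Etv5 had 803, 691, 748 and 627 CPM in the initial segment and 67.4, 45.2, 109 and 44.5 CPM in the caput, a difference of 3.43 (SE 0.26). Etv4 differed by 3.70 (SE 0.21) and the related Etv1 by 2.0 (SE 0.18). All 3 ETS factors were separated without overlap. Among the enzymes that switch ERK off, Dusp6 differed by 3.08 (SE 0.22), Dusp5 by 2.92 (SE 0.25) and Dusp4 by 2.50 (SE 0.18). The Sprouty and Spred inhibitors of this cascade were also higher in the initial segment, by 1.0 for Spry2, 1.71 for Spry1, 2.06 for Spry4, 1.55 for Spred2 and 1.92 for Spred1.

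Kinases of the cascade itself showed small differences or none that passed. Braf, Map2k1 and Map2k2 did not pass the test, with differences between 0.08 and 0.35, and Mapk3 was called towards the caput (-0.34, SE 0.12) with overlapping libraries. Of 33 tested genes of the pathway list, 17 were higher in the initial segment, 10 of them at least 4-fold, 5 were higher in the caput and 11 did not pass the test. The median of the list was 0.50. The FGF receptors were split, since Fgfr4 was higher in the initial segment by 3.04 (SE 0.37) and Fgfr2 higher in the caput by 0.82 (SE 0.11). With library size in place of TMM the Fgfr2 call was lost (-0.70, edgeR adjusted p = 0.118). Nell2, the ligand made in the testis, had 0.335 ± 0.246 CPM in the initial segment and 1.08 ± 0.425 CPM in the caput (SD, n = 4). It was called towards the caput (-1.66, SE 0.54, edgeR adjusted p = 0.0295) although its libraries overlapped, and the call was lost without initial segment replicate 2 or 4 or caput replicate 1 or 4 (adjusted p from 0.0533 to 0.0859).

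Ovch2, a secreted protease that the lumicrine route switches on and that is needed to ripen sperm surface proteins, had 2391, 2489, 2147 and 1974 CPM in the initial segment and 153, 167, 298 and 201 CPM in the caput. The difference was 3.46 (SE 0.21) without overlap. Adam28, a metalloprotease of the same surface, had 4901, 4991, 5187 and 3519 CPM against 250, 182, 509 and 261 CPM. Its difference was 3.95 (SE 0.29). For both genes the highest caput value was in replicate 3 of the caput.

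**Figure D3:**
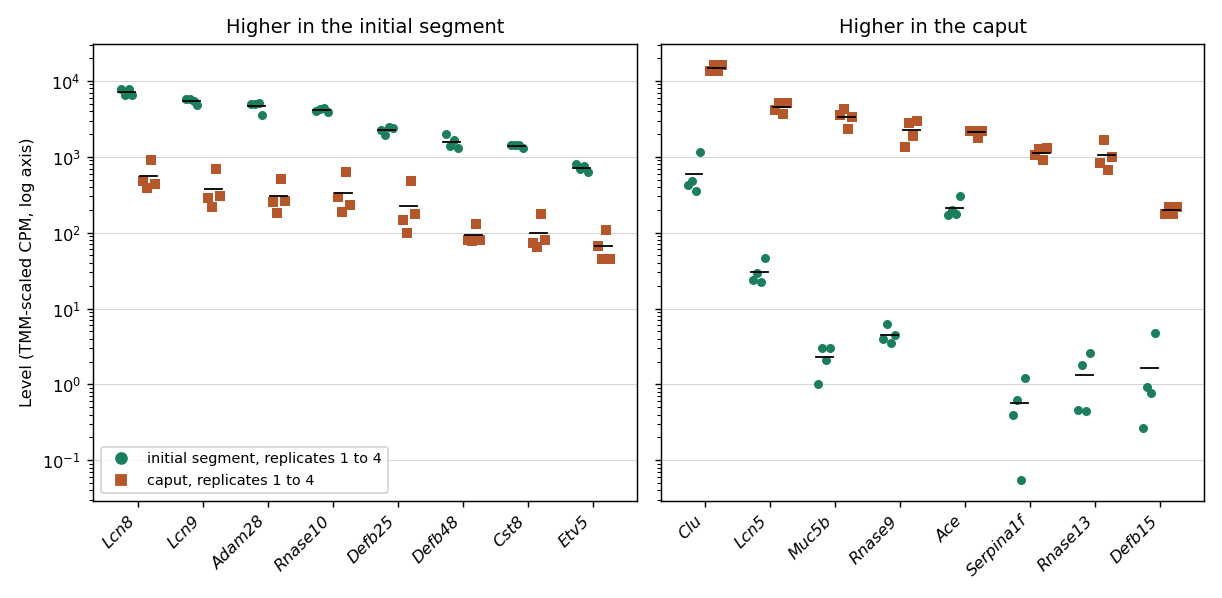
Points are the CPM of single libraries (log axis) for 8 genes higher in the initial segment (left) and 8 higher in the caput (right), with the mean of the 4 libraries as a bar. In the left panel caput replicate 3, the third square of each gene, is the highest caput value, and in the right panel the initial segment values spread over more than 10-fold for Serpina1f and Defb15.

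Lipocalins, small carriers of retinoids, lipids and odorants, were divided within one gene cluster on chromosome 2. Lcn8 (ENSMUSG00000036449, chr2:25653120-25656217, plus strand, GRCm38) had 7937, 6571, 7711 and 6546 CPM in the initial segment and 486, 382, 911 and 437 CPM in the caput. Lcn5 (ENSMUSG00000026937, chr2:25657952-25661977, plus strand) begins 1734 bases further on and had 23.9, 29.7, 22.2 and 45.8 CPM in the initial segment and 4091, 5180, 3639 and 5068 CPM in the caput. The neighbours thus lay on opposite sides, with a difference of 3.70 (SE 0.26) for Lcn8 and of -7.21 (SE 0.28) for Lcn5. At the far end of the cluster Lcn9 had 5828, 5833, 5506 and 4809 CPM in the initial segment against 284, 221, 685 and 301 CPM in the caput, a difference of 3.88 (SE 0.31). Per kilobase of exon, Lcn8 had the highest level of the genes 4-fold higher in the initial segment, 11000 CPM per kb, and Lcn5 had 5100 CPM per kb in the caput.

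Between these genes the cluster was not uniform. Lcn10 (2.59, SE 0.26), Obp2a (2.45, SE 0.27), Obp2b (4.01, SE 0.35) and Lcn3 (4.64, SE 0.71), the last pair at under 5 CPM on average, were higher in the initial segment, and Lcn6 did not pass the test (0.68, edgeR adjusted p = 0.0583). Lcn5 was the only tested protein-coding gene of the stretch from Lcn8 to Lcn9 with a lower level in the initial segment. Outside the cluster, Lcn2, an iron siderophore carrier, was higher in the initial segment by 1.94 (SE 0.21), with 4664 ± 394 CPM against 1219 ± 395 CPM (SD, n = 4). Ptgds, the lipocalin-type prostaglandin D synthase, was higher in the caput by 3.56 (SE 0.36), and Lcn12 by 2.80 (SE 0.45). In all, 8 of 13 tested lipocalins were higher in the initial segment, 3 in the caput and 2 did not pass.

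A similar split ran through the ribonuclease A family, whose epididymal members are secreted and mostly lack enzymatic activity. Rnase10 (ENSMUSG00000021872, chr14:51007751-51010758, plus strand) had 4014, 4319, 4366 and 3947 CPM in the initial segment and 294, 185, 633 and 233 CPM in the caput. Rnase9 (ENSMUSG00000052382, chr14:51038459-51041869, minus strand), 27700 bases away, had 3.93, 6.18, 3.52 and 4.45 CPM in the initial segment and 1347, 2759, 1881 and 2969 CPM in the caput. The differences were 3.63 (SE 0.32) and -8.94 (SE 0.33). Rnase13, on the same chromosome, was at 0.44 to 2.56 CPM in the initial segment and at 676 to 1674 CPM in the caput, a difference of -9.61 (SE 0.50). Of the other members tested, Rnase4 (0.86) and Ang (0.90), whose gene spans overlap so that reads may be split between them, were higher in the initial segment, Rnase6 (-1.74) and Rnase12 (-0.63) were higher in the caput, and Rnase1, Rnase11 and Ear2 did not pass the test.

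The start regions of these 2 pairs are printed because each pair holds close neighbours with opposite patterns. They come from RefSeq (GRCm38.p6), run from 250 bases before to 50 bases after the start and are written 5′ to 3′ on the strand of the gene. Capitals mark GGAAG, the core that ETS factors recognise, or its reverse complement CTTCC.
Lcn8, chr2:25652868-25653167, plus strand: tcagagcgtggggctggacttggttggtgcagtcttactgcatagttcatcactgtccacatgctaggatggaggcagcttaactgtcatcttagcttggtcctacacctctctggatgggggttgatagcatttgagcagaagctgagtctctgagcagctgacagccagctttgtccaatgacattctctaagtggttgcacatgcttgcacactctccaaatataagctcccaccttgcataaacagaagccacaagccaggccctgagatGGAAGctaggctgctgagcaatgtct
Lcn5, chr2:25657702-25658001, plus strand: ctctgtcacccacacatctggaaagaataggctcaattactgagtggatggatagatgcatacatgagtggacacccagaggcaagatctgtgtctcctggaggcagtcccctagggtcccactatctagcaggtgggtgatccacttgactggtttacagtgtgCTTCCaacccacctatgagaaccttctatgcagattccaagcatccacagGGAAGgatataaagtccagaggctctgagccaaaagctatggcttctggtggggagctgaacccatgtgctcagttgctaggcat
Rnase10, chr14:51007679-51007978, plus strand: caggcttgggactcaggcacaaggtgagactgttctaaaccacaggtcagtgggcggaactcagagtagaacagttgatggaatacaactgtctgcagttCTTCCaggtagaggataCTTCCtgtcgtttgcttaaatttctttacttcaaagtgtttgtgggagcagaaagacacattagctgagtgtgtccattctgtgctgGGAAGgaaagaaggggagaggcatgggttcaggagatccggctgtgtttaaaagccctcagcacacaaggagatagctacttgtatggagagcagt
Rnase9, chr14:51041818-51042117, minus strand: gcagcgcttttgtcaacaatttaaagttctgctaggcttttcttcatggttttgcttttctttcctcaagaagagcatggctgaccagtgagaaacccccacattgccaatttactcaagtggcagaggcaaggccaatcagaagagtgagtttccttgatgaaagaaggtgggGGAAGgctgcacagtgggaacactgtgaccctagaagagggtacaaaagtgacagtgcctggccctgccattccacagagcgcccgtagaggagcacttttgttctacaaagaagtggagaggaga

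The windows held 1 core in Lcn8, 2 in Lcn5, 3 in Rnase10 and 1 in Rnase9, so both regions' genes carried it. RefSeq lists a further start of Rnase10, whose window (chr14:51007501-51007800) holds 2 cores and is not printed. On either strand, GGAAG was in 74% of the promoters of genes 4-fold higher in the initial segment, 72.6% of those 4-fold higher in the caput and 77.2% of all 14628 promoters matched to a tested gene. The motifs are nested, since CGGAAG contains GGAAG and lies within CCGGAAGT. CGGAAG was in 11.7, 10.6 and 28%, and CCGGAAGT in 1.51, 1.06 and 7.02%. Both longer motifs were rarer among the genes of either region than among all promoters, and the shares of the 2 regions were close.

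Cystatins, inhibitors of cysteine proteases, were called towards the initial segment or not at all. Cst8 had 1431, 1448, 1424 and 1293 CPM in the initial segment and 73.6, 64.9, 178 and 79.5 CPM in the caput, a difference of 3.82 (SE 0.29). Cst12 had 525, 532, 326 and 336 CPM against 27.9, 17.9, 26.3 and 23.0 CPM, a difference of 4.16 (SE 0.21). Their neighbours 9230104L09Rik (3.52, SE 0.29) and Cst11 (2.46, SE 0.38) were abundant too, with 4509 ± 482 and 2460 ± 128 CPM in the initial segment (SD, n = 4). Within the cluster on chromosome 2, from Cstl1 to Cst3, all 9 tested genes had a higher fitted level in the initial segment and 8 of them passed the test, with Cstl1 as the exception (edgeR adjusted p = 0.0574). This contrasts with the lipocalin and ribonuclease clusters, which held genes of both directions. Over the whole family 8 of 12 were called towards the initial segment and 0 towards the caput, where 0 also had an unadjusted p under 0.05.

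Beta-defensins, small cationic peptides that kill microbes and bind to sperm, mostly leaned to the caput. Of 36 tested members, 22 were higher in the caput, 20 of them at least 4-fold, 6 were higher in the initial segment and 8 did not pass the test. The list's median was -2.36, or -2.28 with members at 0 set to their bounds. Defb23 had 0.0666, 0.206, 0 and 0 CPM in the initial segment and 212, 286, 206 and 336 CPM in the caput, a difference of -11.67 (SE 0.38). Defb39 was at 0.466 to 0.935 CPM against 107 to 201 CPM (-7.79, SE 0.26), and Defb15 at 0.266, 0.928, 0.77 and 4.70 CPM against 176, 216, 176 and 219 CPM (-6.89, SE 0.49). The members on the initial segment side were fewer. Defb48 had 1999, 1403, 1649 and 1306 CPM in the initial segment and 80.3, 77.5, 129 and 79.9 CPM in the caput, a difference of 4.11 (SE 0.21). Defb25 differed by 3.32 (SE 0.39) and Defb20 by 1.79 (SE 0.30), the latter with 2305 to 4117 CPM against 531 to 1504 CPM. Beta-defensin genes lie in arrays of similar copies, so reads may be split between them and single members are uncertain. Spag11b, a defensin-like sperm-binding gene, did not pass the test (0.32, SE 0.23).

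Among protease inhibitors of the WAP and Kunitz type, 3 neighbours were nearly uncounted in the initial segment. Wfdc13, Spint4 and Spint5 lie on the plus strand within chr2:164685107-164718068 (GRCm38). Spint4 had 0, 0.258, 0.11 and 0 CPM in the initial segment and 395, 119, 144 and 399 CPM in the caput (-11.25, SE 0.64). Wfdc13 had 2 counts in total in the initial segment and 175, 50.7, 45.5 and 101 CPM in the caput, a ratio of 3490 with a 95% counting interval of 967 to 28900. Spint5 gave a ratio of 2100 (580 to 17300). In the caput these 3 genes varied between libraries by 3-fold or more, and the group gap was wider still. Of 21 tested inhibitors 13 were higher in the caput, 7 of them at least 4-fold, 3 were higher in the initial segment and 5, among them Eppin and Spint3, did not pass. Towards the initial segment, Wfdc2 (1.75, SE 0.27) and Wfdc6a (1.52, SE 0.22) stood at modest levels of 6.42 ± 1.74 and 35.8 ± 9.4 CPM (SD, n = 4).

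Serpins, which trap serine proteases, differed mainly through a stretch of chromosome 12. Serpina16 had no count in any initial segment library and 146, 126, 99.1 and 149 CPM in the caput, which makes it at least 2990-fold higher there against a floor of 3 counts over the group. Serpina1f had 0.40, 0.618, 0.055 and 1.22 CPM in the initial segment and 1051, 1255, 907 and 1308 CPM in the caput, a difference of -10.94 (SE 0.41). Gm5656, an unprocessed pseudogene beside them whose reads may be shared with a near copy, also had no count in the initial segment and was at least 597-fold higher in the caput. Of 30 tested members 26 did not pass the test, and Serpine2 (1.04, SE 0.18) and Serpini1 were the 2 called towards the initial segment. Among other genes without a count in the initial segment, Gm16411, a processed pseudogene on the X chromosome, was at least 2200-fold higher in the caput.

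Other strongly counted caput genes lay outside these families. Clu, an extracellular chaperone, had 421, 473, 357 and 1151 CPM in the initial segment and 13350, 16330, 13550 and 16100 CPM in the caput, a difference of -4.63 (SE 0.35). Muc5b, a gel-forming mucin, had 0.999, 3.04, 2.09 and 3.05 CPM against 3584, 4205, 2341 and 3311 CPM, a difference of -10.50 (SE 0.36). Glul, glutamine synthetase, had 915, 1037, 947 and 1591 CPM against 4904, 5453, 4945 and 5742 CPM (-2.23, SE 0.19). Slc38a5, a glutamine transporter, had 392, 648, 479 and 1835 CPM against 4471, 3028, 4011 and 4028 CPM (-2.21, SE 0.39). No gene of these 4 overlapped between the groups, and initial segment replicate 4 was the highest of its group or level with the highest for all of them. Gm24270, annotated as a microRNA gene, was also called towards the caput (-4.12, SE 1.23, edgeR adjusted p = 0.0187), but this rested on 3708 CPM in caput replicate 2, and the groups overlapped. Without caput replicate 2 its difference was -0.16, and with caput replicate 1 as the only caput library it turned to 1.42.

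Peptidases were called on both sides. The angiotensin-converting enzyme Ace had 171, 198, 175 and 302 CPM in the initial segment and 2184, 2219, 1791 and 2162 CPM in the caput (-3.31, SE 0.20). Ggt1, which breaks down glutathione outside the cell, had 32.0, 30.0, 32.8 and 54.2 CPM against 343, 381, 322 and 389 CPM (-3.27, SE 0.19). Dpp4 was likewise higher in the caput (-2.72, SE 0.37). The proprotein convertase Pcsk5 (2.05, SE 0.13) and Adamdec1 (3.38, SE 0.28) were higher in the initial segment. Adam7, an epididymal surface protein, did not pass the test, with 6638 to 9128 CPM and 4482 to 6519 CPM (0.41, SE 0.18, edgeR adjusted p = 0.0898), although the groups did not overlap. DESeq2 called it (0.40, adjusted p = 0.0366), and against caput replicate 1 alone its difference was 0.77. Of 29 tested peptidases, 12 were higher in the initial segment, 7 in the caput and 10 did not pass.

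Of 29 antioxidant enzymes 10 were called towards the caput, 5 towards the initial segment and 14 were not called. Gpx5, the sperm-coating glutathione peroxidase and per kilobase among the strongest genes of both regions (10600 and 9980 CPM per kb), had 14340, 16890, 14760 and 25050 CPM in the initial segment and 15110, 16690, 20230 and 14810 CPM in the caput. The groups overlapped and the difference was 0.09 (SE 0.21, edgeR adjusted p = 0.786). Plasma-type Gpx3 was higher in the caput, with 138, 135, 149 and 149 CPM against 975, 763, 577 and 752 CPM (-2.43, SE 0.16), as was the disulphide-forming oxidase Qsox2 (-2.02, SE 0.17). Txn1 (1.33, SE 0.19) and Prdx1 (0.98, SE 0.13) were higher in the initial segment.

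Of 21 genes of steroid response and metabolism, 6 were higher in the initial segment, 3 in the caput and 12 did not pass, beside 15.7 and 16.9% of all genes tested. Srd5a2, which makes dihydrotestosterone, did not pass (0.04, SE 0.16). Its isoenzyme Srd5a1 was higher in the initial segment, with 41.0, 42.3, 35.3 and 43.4 CPM against 7.85, 4.62, 10.6 and 6.65 CPM (2.41, SE 0.19). The cholesterol exporters Abcg1 (1.64, SE 0.17), Abca7 (1.13, SE 0.20) and Abca1 (0.53, SE 0.13) were higher there as well, although the Abca1 call was lost at a similar difference with library size only (0.65, edgeR adjusted p = 0.173) and with all 28 libraries of 3 months (0.53, edgeR adjusted p = 0.134). Against caput replicate 1 alone, a single library, the Abca1 difference was 0.33. The opioid precursor Penk was higher in the caput (-1.60, SE 0.27).

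Ion and water carriers were called on both sides, with 12 of 36 called towards the initial segment, 13 towards the caput and 11 not called. The chloride channel Cftr had 220, 200, 199 and 165 CPM in the initial segment and 14.2, 15.0, 25.3 and 19.1 CPM in the caput (3.40, SE 0.18). The sodium-bicarbonate cotransporter Slc4a4 (1.70, SE 0.13), the proton exchanger Slc9a3 (3.68, SE 0.56), the water channel Aqp1 (2.20, SE 0.15) and carbonic anhydrase Car2 (2.0, SE 0.21) were higher in the initial segment. In the caput, the phosphate carrier Slc34a2 had 140, 99.9, 108 and 148 CPM against 1.93, 2.58, 2.86 and 6.53 CPM (-5.16, SE 0.30). Carbonic anhydrases Car4 (-4.31, SE 0.55) and Car12 (-2.87, SE 0.33) were higher in the caput too. The main water and solute channel of the duct, Aqp9, differed by 0.55 (SE 0.12), a call that was lost with library size only (0.67, edgeR adjusted p = 0.148).

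Transcription factors that pattern the duct were also divided. Of 32 tested developmental regulators, 7 were higher in the initial segment, 12 in the caput and 13 did not pass. Hnf4a had 12.3, 12.4, 14.7 and 8.36 CPM in the initial segment and 0.827, 1.73, 0.156 and 0.0583 CPM in the caput (4.45, SE 0.49), and the growth factor Bmp7 had 162, 147, 169 and 99.5 CPM against 21.1, 10.3, 19.6 and 14.2 CPM (3.12, SE 0.22). Sall1 (3.70, SE 0.58) and Bmp8a (2.35, SE 0.24) were higher in the initial segment as well. On the caput side were Pax2, with 30.8, 22.8, 36.3 and 38.4 CPM against 250, 164, 137 and 177 CPM (-2.50, SE 0.20), and Elf5, an ETS factor of secretory epithelia (-5.72, SE 0.42). Pax8, the relative of Pax2, was higher in the initial segment by 0.80 (SE 0.13), so Pax2 and Pax8 went opposite ways.

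Hox genes, which set position along the body and along the ducts, were called in equal number on each side, 11 of 31 each. Hoxb7 (0.94, SE 0.17), Hoxb9 (0.68, SE 0.11), Hoxa9 (1.44, SE 0.23), Hoxa10 (1.27, SE 0.37) and Hoxd10 (2.43, SE 0.44) were called towards the initial segment, Hoxa10 with overlapping libraries. All 6 tested members of the Hoxc cluster were higher in the caput. Hoxc4 differed by -0.80 (SE 0.19) and Hoxc9 by -3.94 (SE 0.38), the latter with 0.27 ± 0.162 CPM against 4.21 ± 0.741 CPM (SD, n = 4). Hoxc10 had no count in the initial segment and 0.172 ± 0.041 CPM in the caput, too near the floor for a fold.

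Tight-junction genes were split evenly, with 8 of 25 on each side. Cldn10 (2.74, SE 0.20), Cldn14 (1.59, SE 0.21), Cldn1 (1.52, SE 0.13) and Cldn4 (1.39, SE 0.17) were higher in the initial segment, and Cldn8 (-1.36, SE 0.18), Cldn3 (-1.24, SE 0.13) and Tjp3 (-1.29, SE 0.16) in the caput. Of 30 endoplasmic reticulum and secretion genes 19 did not pass the test, among them Calr (-0.22, SE 0.17) and the chaperones Hspa5 and Hsp90b1. Derl3 (1.12, SE 0.18) was higher in the initial segment and Canx (-0.56, SE 0.13) and Pdia4 (-0.56, SE 0.12) in the caput. With library size only, neither Canx (-0.38, edgeR adjusted p = 0.5) nor Pdia4 (-0.40, edgeR adjusted p = 0.47) was called. Against caput replicate 1 alone, a single library, the Canx difference was -0.31. Among the CRISP and CAP proteins, which modulate sperm ion channels, Crisp4 was higher in the initial segment (0.93, SE 0.18), and Crisp1 was called (1.05, SE 0.36, edgeR adjusted p = 0.0381) although its libraries overlapped, at 255 to 690 CPM and 111 to 370 CPM. The Crisp1 call was lost without initial segment replicate 1 or 2 or caput replicate 2 or 3 (adjusted p from 0.0958 to 0.131), without initial segment replicate 4 and caput replicate 3 together (0.107), with the filterByExpr filter (0.0501) and with DESeq2 (0.0843). Against caput replicate 1 alone its difference was 0.38.

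Markers of other cell types were counted beside these results, and their part in them was not tested. Endothelial markers were higher in the initial segment for 15 of 18 genes and in the caput for none, where 0 had an unadjusted p under 0.05. Their sum was 468 to 622 CPM against 186 to 229 CPM and their median difference 1.35. Kdr, the VEGF receptor of vessels, differed by 1.88 (SE 0.14), Plvap, of fenestrated capillaries, by 2.46 (SE 0.23) and Pecam1 by 1.27 (SE 0.14), all named after their values were seen. Haemoglobins pointed the same way at low levels, with a red cell sum of 24.9 to 45.2 CPM against 8.95 to 16 CPM, and reads of their near-identical copies cannot be assigned with certainty. Macrophage and dendritic cell markers were higher in the initial segment for 14 of 20 genes (sum 429 to 470 against 292 to 357 CPM), including Cx3cr1 (1.14, SE 0.16) and Csf1r (0.96, SE 0.12), while Cd68 (-1.23, SE 0.24) and Cd163 were higher in the caput.

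Sperm and germ cell transcripts were higher in the caput for 9 of 25 genes and in the initial segment for 3, with a sum of 297 to 394 CPM against 132 to 270 CPM. Smcp, of the sperm mitochondrial capsule (-2.56, SE 0.33), and Odf1, of the outer dense fibres (-2.32, SE 0.25), were the clearest, and the protamine Prm1 did not pass (0.32, SE 0.30). Markers of ciliated cells, which line the efferent ductules and not the epididymis, were higher in the initial segment for 10 of 13 genes and in the caput for Mcidas and Ccno, with a sum of 159 to 222 CPM against 87.3 to 106 CPM. The ciliary master regulator Foxj1 had 25.4, 21.4, 26.4 and 16.5 CPM in the initial segment and 3.20, 3.75, 1.20 and 1.05 CPM in the caput (3.38, SE 0.32). Of 8 tested efferent ductule absorptive markers 5 were higher in the initial segment, 4 of them at least 4-fold, and 2 in the caput, with a median of 1.77. Lrp2 (1.11, libraries overlapping), Aqp1 (2.20) and Slc9a3 (3.68) were among those higher in the initial segment, Pdzk1 (-0.63) and Slc5a2 (-2.04, at under 1.2 CPM and overlapping) were higher in the caput, and Slc34a3 was at 0 in all 8 libraries. Against caput replicate 1 alone, a single library, the Lrp2 difference was 0.45. The sum over these markers overlapped, at 447 to 471 and 393 to 593 CPM, and Pdzk1 made up its largest share, with 208 to 322 and 329 to 525 CPM.

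Lists for fibroblasts and adipocytes had overlapping sums, with 3 and 2 genes called towards the initial segment and 1 each towards the caput. Basal cell markers were called for 3 of 10 towards the initial segment, led by Krt17 (2.64) and Itga6 (1.52), and for 1 towards the caput. The other 6 did not pass the test and the median difference was 0.12, although the sums stood apart (376 to 409 against 246 to 286 CPM). Clear and narrow cell markers were called for 5 of 12 towards the caput, among them Foxi1 (-1.69, SE 0.26), and for 2 towards the initial segment. Skeletal muscle markers were called for 5 of 11 towards the caput at sums of 9.64 to 14.2 against 16.7 to 19.4 CPM. The sums of the smooth muscle list (3060 to 3680 against 1480 to 1880 CPM) and of the T cell list (50.7 to 91.8 against 8.04 to 14.5 CPM) each rested mostly on 1 gene, named after its value was seen. Actg2, the enteric smooth muscle actin, differed by 3.64 (SE 0.24) with 1846 ± 225 against 148 ± 54 CPM (SD, n = 4), while Acta2 did not pass (-0.36, SE 0.17). Zap70, a T cell kinase, differed by 3.68 (SE 0.27). Cd3e, a chain of the T cell receptor complex, was the other of 16 tested T cell genes called towards the initial segment (0.88, SE 0.29, edgeR adjusted p = 0.0314), and the remaining 14, Lck, Cd4 and Cd8a among them, did not pass.

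Genes of the neighbouring region were not at the same level in all libraries. For this, genes of each region were chosen in the 21-month libraries alone, as those with at least 10 CPM there whose lowest library exceeded the highest library of the neighbour 8-fold, non-coding genes included, and their 3-month level was expressed as a percentage of the 3-month mean of their own region. In initial segment replicates 1 to 4, the median level of 137 caput genes, 123 of them protein-coding, was 2.21, 3.04, 2.32 and 4.34%. Replicate 4 was the highest library for 84 of the 137 genes. Single genes showed larger steps, as for Teddm1b, an epididymal membrane protein, with 53.8, 234, 89.3 and 603 CPM in the initial segment and 748 to 940 CPM in the caput. Clu, which is in the marker set, and Slc38a5, which did not meet its rule, followed the same order at the top, with the values given above. Teddm1b was called (-1.72, SE 0.53, edgeR adjusted p = 0.0218) but lost the call without initial segment replicate 2 (adjusted p = 0.0597) or replicate 3 (adjusted p = 0.0591), and the difference grew to -2.69 without replicate 4. Against caput replicate 1 alone it was -1.62.

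Among the 137 caput genes, those that stay on in the corpus, the next region, gave medians similar to those that do not. Genes with a corpus level between the limits used below were left out. For 48 genes whose corpus level was under an eighth of the caput level, the medians in initial segment replicates 1 to 4 were 2.38, 3.12, 2.56 and 4.49%. For 70 genes with a corpus level at or above 50% of the caput level they were 2.31, 3.79, 2.28 and 4.39%. Replicate 4 was the highest in both sets.

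In the reverse direction only 20 initial segment genes met the 8-fold rule, 8 of them protein-coding, and their medians in caput replicates 1 to 4 were 7.25, 7.28, 13.1 and 8.91%. The upper quartiles were 32.5, 279, 267 and 207%, so at 3 months some of these genes were above the initial segment mean in caput replicates 2 to 4. The 8 protein-coding genes alone gave 6.93, 4.44, 8.36 and 6.47%, and a sum over the 20 genes gave 6.26, 16.5, 14.2 and 11.3%, with replicate 2 the highest. With a 4-fold rule there were 165 genes, at 9.93, 7.18, 14.5 and 8.16%. Caput replicate 3 was the highest library for 114 of the 165, and among the initial segment libraries replicate 4 was the lowest for 107 of them, at a median of 85.1% against 101 to 111% in the others. Of the 32 named genes 4-fold higher in the initial segment, 23 had their highest caput value in replicate 3, among them Lcn8, Lcn9, Adam28, Rnase10 and Etv5, and 6, among them Ntsr1 and Cst12, had it in replicate 1. Initial segment replicate 4 and caput replicate 3 were also the most alike libraries of different regions, with r = 0.964. Whether the RNA came from tissue of the neighbour or from cells of the region itself was not tested.

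Genes of the outer neighbours varied between libraries as well. The median level of 122 efferent ductule genes was 6.08, 5.86, 7.46 and 4.38% in initial segment replicates 1 to 4, highest in replicate 3 for 78 of the genes, and 1.35 to 2% in the caput. At the other end, 83 corpus genes stood at 4.48% in caput replicate 1 and at 1.70, 1.75 and 1.85% in caput replicates 2 to 4, with replicate 1 the highest for 62 of the 83. In the initial segment the 83 genes stood at 0.619 to 0.863%. With library size only, 36 genes met the rule and stood at 3.89, 0.757, 1.52 and 1.59% in caput replicates 1 to 4. Of the 4 named corpus markers, 2 showed the step. Ltf, lactoferrin, had 7.29 CPM in caput replicate 1 and 0.834 to 1.46 CPM in the others, and Wfdc16 had 44.4 CPM against 13.8 to 16.5 CPM. Npy, a neuropeptide precursor, had 14.3, 11.8, 4.22 and 10.2 CPM in caput replicates 1 to 4, and Serpina16, with the values given above, was highest in replicate 4.

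**Figure D4:**
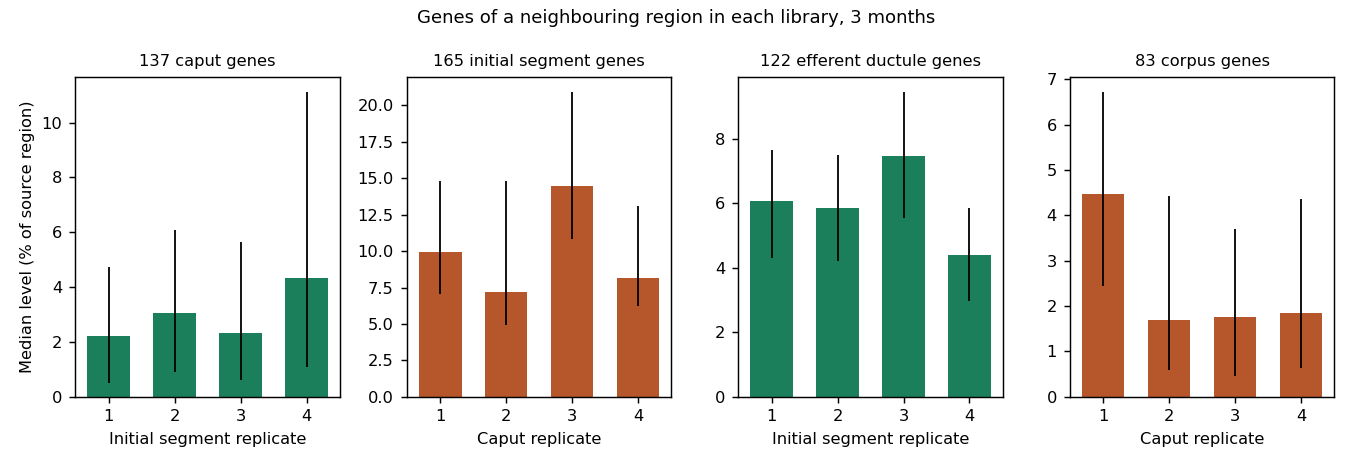
Bars are the median level of genes of a neighbouring region in each library, as a percentage of the mean of that region at 3 months, and lines span the quartiles over genes; each panel has its own axis. Caput genes peak in initial segment replicate 4, initial segment genes (4-fold rule) in caput replicate 3, efferent ductule genes in initial segment replicate 3 and corpus genes in caput replicate 1.

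Leaving out the 2 libraries in which genes of the other region were highest by these medians, initial segment replicate 4 and caput replicate 3, lowered the number of calls from 4002 to 3245 towards the initial segment and from 4297 to 3525 towards the caput. Among genes of all types, 993 were then 4-fold apart towards the initial segment and 1274 towards the caput, of which 868 and 1087 were also among the calls of all 8 libraries.

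Along the whole tract at 3 months, scaled over 28 libraries, Lcn8, Cst8, Etv5 and Ros1 had their highest mean in the initial segment. Lcn8 had a mean of 7990 ± 835 CPM in the initial segment, 617 ± 263 CPM in the caput and at most 1.06 CPM in the other 5 regions (SD, n = 4 each). Cst8 had 128 ± 8 CPM in the testis beside its peak of 1550 ± 76 CPM, and Etv5 kept 10.1 to 43.8 CPM in the regions outside the initial segment and caput. Ros1 spanned both regions, with 931 ± 68 and 468 ± 25 CPM, and was at 10.8 CPM in the corpus. Other genes called towards the initial segment were higher elsewhere. Hnf4a had 13.3 CPM in the initial segment and 236 CPM in the efferent ductules, Foxj1 24.9 and 455 CPM, Dnah6 28.6 and 420 CPM, and Slc9a3 7.88 and 183 CPM.

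Caput genes differed in where else they were counted. Lcn5, Muc5b and Rnase13 had 7.49, 1.93 and 0.469 CPM in the corpus after 5020, 3750 and 1170 CPM in the caput. Serpina16 went on rising from 145 ± 27 CPM in the caput to 2940 ± 247 CPM in the corpus, and Wfdc13 from 104 ± 68 to 1080 ± 85 CPM. Serpina1f was lowest of the last 4 regions in the caput (1260 ± 214 CPM) and highest in the cauda (2890 ± 656 CPM), though the caput and the corpus (1370 ± 76 CPM) lay within their spread. Glul had 5290 ± 198 CPM in the efferent ductules and 5870 ± 476 CPM in the caput, and Gpx3 had 857 ± 189 CPM in the caput and 8570 ± 999 CPM in the corpus. Gpx5 covered the initial segment (19700 ± 5580 CPM) and caput (18600 ± 2590 CPM) with overlapping spreads and stood at 9.41 CPM in the corpus.

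**Figure D5:**
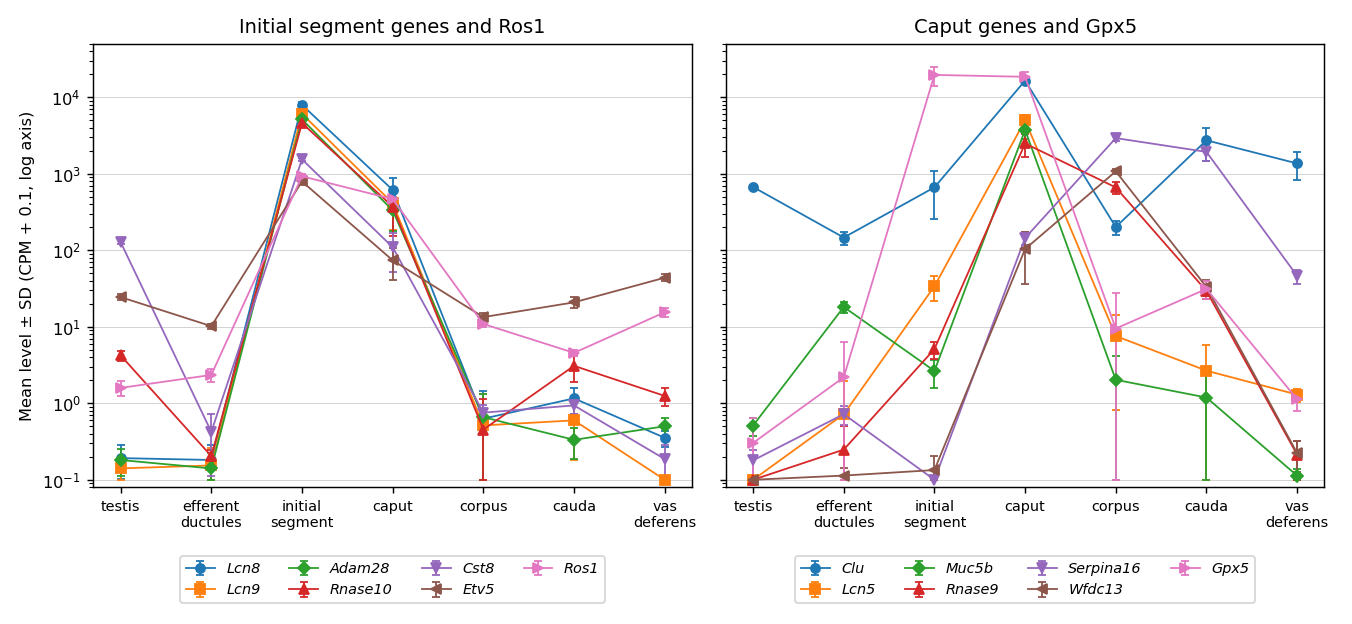
Points are the mean of 4 libraries per region at 3 months (CPM plus 0.1, log axis) and bars are the SD, cut at the offset where the SD exceeds the mean. The initial segment genes plotted (left) peak in the initial segment with a shoulder in the caput; among caput genes (right) Lcn5 and Muc5b peak in the caput, Serpina16 and Wfdc13 peak in the corpus, and Gpx5 is level across both regions.

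The 21-month libraries, from other mice, gave a separate look at the same contrast. There 1757 of 25382 genes (6.92%) were 4-fold apart towards the initial segment and 1613 (6.35%) towards the caput. Of the 991 genes 4-fold higher in the initial segment at 3 months, 682 (68.8%) passed the same thresholds at 21 months and 924 (93.2%) had the same direction. Of the 1390 caput genes, 830 (59.7%) passed and 1053 (75.8%) had the same direction, and 182, of which 10 code for protein, were called the other way. Those 182 genes, without Gm42418, summed to 67.4 to 97.4 CPM in the initial segment, 95.1 CPM in caput replicate 1 and 538 to 662 CPM in caput replicates 2 to 4, the same grouping as the opposite-strand share. Among protein-coding genes alone 476 of 666 (71.5%) and 510 of 641 (79.6%) passed again.

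The leading genes listed next had the same direction at both ages. At 21 months the difference was 3.24 for Lcn8, 3.12 for Lcn9, 3.52 for Adam28, 2.64 for Rnase10 and 2.95 for Etv5. For the caput genes it was -7.38 for Lcn5, -8.0 for Rnase9, -10.10 for Muc5b, -4.46 for Clu and -11.41 for Serpina1f. Gm24270, whose 3-month call towards the caput rested on caput replicate 2, was called towards the initial segment at 21 months (1.73, edgeR adjusted p = 0.000152). A few differences that had been called at 3 months were small at 21 months, such as Prdx1 (0.06, edgeR adjusted p = 0.442) and Lrp2 (0.17, edgeR adjusted p = 0.784). Whether these differences changed between the ages was not tested.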

How the data were processed

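Strand-specific total RNA libraries were sequenced as paired ends. Per the labels, the authors trimmed reads with cutadapt, aligned them with HISAT2 to mm10 and counted them per gene with HTSeq, and deposited 1 table of raw read counts for all 56 libraries. Versions, the annotation release, the counting mode and the strand setting are not given in the sources used here. Gene names and positions were matched for 53274 of 53379 identifiers. No column of another series was found (0), and 0 library pairs were identical.

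The 4 initial segment and 4 caput libraries of 3 months were fitted alone with edgeR 4.0.16 in R 4.3.3 (TMM scaling, quasi-likelihood F-test, two-sided, no covariate), keeping each gene whose counts summed to 10 or more over the 8 libraries, with Benjamini-Hochberg adjustment over all genes tested and a threshold of 0.05. For single genes, an exact test over 4 against 4 libraries could not go below 0.0286. A bound against no count used 3 counts over the group, and ratios against 1 to 3 counts carry a 95% counting interval. Intervals and floors cover counting error only. Tested on simulated counts for 24838 genes of this comparison, the fit recovered 69% of 100 genes changed 2-fold and 100% of 100 changed 4-fold. Weakly counted genes were not among those changed, and the simulation held no split between caput libraries. These shares therefore do not carry over to all genes tested.

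Genes were named by a rule: per direction the 10 largest differences among called genes with at least 20 CPM and no overlap, the 6 highest per kilobase among 4-fold genes, per function list the 2 largest called differences each way and the most abundant member, the 4 strongest markers of each neighbouring region, and a fixed set of duct genes. The comparison, the gene lists and the rule were chosen with earlier results of these data known. Alternatives were other scalings, filters, DESeq2 1.42.0, a replicate block, all 28 libraries of 3 months, each library left out and other marker thresholds. Leaving out initial segment replicate 4 with caput replicate 3, caput replicates 2 to 4, or non-coding markers was chosen after seeing the data. The split of caput genes by their corpus level was also added then. With caput replicate 1 as the only caput library, the spread came from the initial segment alone, so differences are given without p-values. Same-numbered libraries deviated from their group means with correlations of 0.0506, 0.0899, 0.0739 and 0.0133, so the numbers were not taken to pair libraries. Protein sequences were not used here, and a few genes of the lists are not reported here.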

Additional observations from a re-analysis of the deposited data

Results flagged for a closer look

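Among 230 sets of 4 libraries looked at (each named gene, marker summary and library measure in each region), 26 held 1 library whose gap to its nearest neighbour exceeded the 95% limit of Dixon's test, a fixed share of the whole range. A rate of 1 in 20 would hold for independent sets of normally spread values, whereas these sets share the same 8 libraries. Sets with counts in 1 library only, such as AY761185, Wfdc13 and Npy in the initial segment, exceed the limit whatever that value is. The number is therefore a description and cannot be read against chance. The libraries concerned were mostly initial segment replicate 4, with 9, caput replicate 1, with 7, and caput replicate 3, with 5.

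Initial segment replicate 4 was highest for Clu (1150 CPM), Defb20 (4120 CPM), Wfdc2 (9.03 CPM), Ggt1 (54.2 CPM), Defb15 (4.7 CPM), Wfdc13 (0.122 CPM) and Npy (0.122 CPM), the last 2 on a pair of counts each. It was lowest for Cst8 (1290 CPM) and for the ciliary motor gene Dnah6 (15.4 CPM). Clu, Ggt1, Defb15, Wfdc13 and Npy were higher in the caput, and the caput genes of the marker set were highest in this library for 84 of 137.

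Caput replicate 3 was highest for Defb48 (129 CPM), 9230104L09Rik (703 CPM), Cst8 (178 CPM) and Defb20 (1500 CPM), all higher in the initial segment, and lowest for Ace (1790 CPM), a caput gene. Initial segment markers under the 4-fold rule were highest in this library for 114 of 165.

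Caput replicate 1 was highest for Ltf (7.28 CPM), Wfdc16 (44.4 CPM), Lrp2 (90.5 CPM), Tjp3 (70.6 CPM) and the summary of corpus genes (4.48%). It was lowest for the chaperone gene Dnajc3 (232 CPM), and its opposite-strand share (0.283%) was the lowest of the caput libraries. Caput replicate 2 stood out for Gm42418, at 941000 CPM on the TMM scale and 49.7% of its counts, and for Gm24270 (3710 CPM). The other sets were Gm24270 in initial segment replicate 1 (90.7 CPM) and AY761185 in initial segment replicate 2 (0.0515 CPM, a single count). The part of dissection, sequencing or the mice in these values was not tested.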

How the results depend on the processing

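The counts of genes called stayed within 1.5 times under most settings. With library size in place of TMM, 2601 genes were called towards the initial segment and 2354 towards the caput, and the median of all genes moved from -0.03 to 0.11. In that setting every gene of caput replicate 2 was divided by a total of which Gm42418 made up 49.7%. The calls of Fgfr2, Abca1, Aqp9, Canx and Pdia4, lost there, were kept with DESeq2 size factors and with TMM after removal of Gm42418. The filterByExpr filter tested 18309 genes and left 652 and 734 genes at least 4-fold apart, a drop that includes genes no longer tested. Leaving out 1 library at a time gave 3265 to 4547 genes towards the initial segment and 3482 to 4763 towards the caput, 892 to 1015 and 1209 to 1478 of them 4-fold apart, and 632 to 691 and 769 to 857 of the latter called again at 21 months. DESeq2 called 4006 and 4369, with 935 and 1342 at least 4-fold apart.

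The replicate numbers were not taken to pair the libraries. The mean correlation of deviations was 0.0569 for equal and -0.019 for unequal numbers and 2 of 8 libraries were closest to their own number, which does not show whether equal numbers mark the same mouse. A replicate block called 3925 and 4080 genes, with 928 and 1282 at least 4-fold apart, of which 901 and 1238 were shared with the unblocked fit. Of the named genes only Gm24270 lost its call.

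Of 109 named genes 102 were called, and 86 of these kept direction and call under every setting. Of 1958 pairs of gene and setting 73 changed, 14 of them in direction. Calr turned to 0.01 with library size only. Without initial segment replicate 4, Gpx5 turned to -0.13 and Srd5a2 to -0.06, and over all single libraries left out they reached 0.19 and 0.15. Without caput replicate 2, Srd5a2 turned to -0.09 and Gm42418 to 0.02, and without caput replicate 3, Car3 turned to 0.75. At the other end of these ranges were -2.34 for Gm42418 and -0.88 for Car3. Without both initial segment replicate 4 and caput replicate 3, the values were -0.03 for Gpx5, -0.01 for Srd5a2 and 0.85 for Car3. Against caput replicate 1 alone they were 1.42 for Gm24270, 0.14 for Calr, -0.21 for Srd5a2, 0.33 for Gm42418 and 1.2 for Car3. Apart from Gm24270, none of these genes was called by edgeR with TMM scaling and the 10-count filter on all 8 libraries. Gm42418 was called with library size only (adjusted p = 0.00379), without a count filter (0.00203), with all 28 libraries (0.0125), without caput replicate 1, 3 or 4 and without both libraries above. Of 1044 list counts under other settings, 928 stayed within 1.5 times. The cause of these shifts was not tested.

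Levels of neighbour genes depended on the marker threshold by construction, as a lower one admits genes that are less specific. Caput genes in initial segment replicates 1 to 4 were at 5.58, 6.83, 5.82 and 11.1% with a threshold of 4 and at 1.06, 1.46, 1.09 and 2.29% with 16, and at 5.43% in replicate 4 as a sum. Efferent ductule genes were at 9.03, 8.62, 9.96 and 6.34% with 4, at 1.88, 1.28, 2.52 and 1.58% with 16, and at 4.43, 4.53 and 5.87% in replicates 1 to 3 with library size only. Corpus genes in caput replicates 1 to 4 were at 8.75, 5.2, 5.48 and 6.52% with 4, and at 1.62% in replicate 1 with 16. With library size only, 36 corpus genes met the rule and stood at 3.89, 0.757, 1.52 and 1.59%. Only 6 initial segment genes met a threshold of 16, and in the caput they stood at 67.9, 531, 428 and 432% of the initial segment at 3 months, so that setting does not mark initial segment tissue. At the threshold of 8, caput replicate 2 gave 3.6% with library size only, 16.5% as a sum and 4.44% with protein-coding markers only, which gave 8.36% in replicate 3.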

Other observations

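Some of the genes with the largest differences are known from the nervous system or the inner ear and belong to none of the groups described. The neurotensin receptor Ntsr1 had 134, 116, 34.3 and 65.7 CPM in initial segment replicates 1 to 4 and 7.80, 3.46, 1.56 and 5.07 CPM in caput replicates 1 to 4, a difference of 4.25 (SE 0.46). The glutamate receptor subunit Gria2 had 159, 159, 140 and 111 CPM against 6.15, 5.48, 12.6 and 9.62 CPM (4.04, SE 0.23). Tecta, a component of the tectorial membrane of the ear, had 197, 181, 119 and 130 CPM against 10.7, 3.75, 8.70 and 14.2 CPM (4.02, SE 0.29). All 3 were separated without overlap. In the other direction, neuropeptide Y (Npy) had 2 counts in the initial segment and 14.3, 11.8, 4.22 and 10.2 CPM in the caput, a ratio of 339 with a 95% counting interval of 93.4 to 2800. In the corpus Npy reached a mean of 1040 CPM.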
